A study of Mus musculus with 16 samples.

Results

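The 91 nuclear genes described here encode subunits of the oxidative phosphorylation complexes, or assembly factors of complex I. They were taken by symbol from the 53342 genes of the deposited tables: the Ndufa, Ndufb, Ndufc, Ndufs and Ndufv genes, Sdha to Sdhd, the Uqcr genes, the Cox4 to Cox8 genes and the Atp5 genes, with Cox6a2 and pseudogene symbols left out. There were 38 genes of complex I, 8 complex I assembly factors, 4 genes of complex II, 8 of complex III, 17 of complex IV and 16 of complex V.

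RNA was sequenced from sorted LSK cells of mouse bone marrow, a small population that includes the stem cells and early progenitors of the blood. The mice were C57BL/6J animals of 8 to 14 weeks. Mutant mice were Gata2 +9.5(Ets)-/-, homozygous for a C>T change in an Ets motif of an intronic enhancer of Gata2, and were set against WT mice. Both genotypes received 5-fluorouracil (5-FU), a pyrimidine analogue that kills cycling cells, at 250 mg/kg or PBS, and marrow was taken 10 days after injection. The groups were mutant after 5-FU (n = 3), WT after 5-FU (n = 3), mutant after PBS (n = 5) and WT after PBS (n = 5). The gate was B220-, CD3-, CD4-, CD5-, CD8-, Sca1+ and c-Kit+, so the listed antibodies included none against a myeloid or plasma cell marker. Each library came from 3000 to 10000 sorted cells, and the labels do not say whether each came from 1 mouse, so p-values measure the spread between these libraries.

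Oxidative phosphorylation makes most of the ATP of an aerobic cell in the inner mitochondrial membrane. Complexes I and II pass electrons from NADH and succinate to ubiquinone, complex III passes them to cytochrome c, and complex IV passes them to oxygen. Complexes I, III and IV pump protons as they do so, and complex V, the ATP synthase, uses the returning protons to make ATP. Some subunits of complexes I, III, IV and V are encoded in the mitochondrial genome, and the tables used here list none of those transcripts. Quiescent hematopoietic stem cells are known to rely more on glycolysis than their cycling progeny.

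Library totals ran from 19.37 to 28.88 M estimated counts, and 18185 to 21212 genes had a count above 0. The 9 stem and progenitor markers were all detected, at a summed level in counts-per-million (CPM) of 1274 to 1585 in mutant 5-FU, 1733 to 2058 CPM in WT 5-FU, 2000 to 4388 CPM in mutant PBS and 2519 to 5015 CPM in WT PBS libraries. Markers of other cells also differed between groups. Immunoglobulin genes took 5.90 to 28.28% of counts in mutant 5-FU libraries, 0.04 to 0.34% in WT 5-FU, 3.83 to 53.65% in mutant PBS and 6.72 to 47.55% in WT PBS. Neutrophil markers summed to 1.93 to 84.7 CPM in mutant 5-FU, 1.28 to 33.7 CPM in WT 5-FU, 3630 to 24330 CPM in mutant PBS and 2906 to 21278 CPM in WT PBS. Their part in the results below was not tested. The library codes in the labels are written with a leading zero in all mutant 5-FU libraries and without it in all WT 5-FU libraries, so within 5-FU the genotype and the way the code is written cannot be told apart.

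Nearly all of these genes had enough counts to test in libraries of sorted LSK cells, which also held transcripts of other cell markers. Of the 91, 88 passed the filter on low counts. Cox8b and Cox8c, heart and testis isoforms of the smallest complex IV subunits, had 0 counts in all 16 libraries. Cox7b2, another testis isoform, had 2 counts in mutant PBS replicate 3 and 1 count in WT PBS replicate 4, and 0 elsewhere. In transcripts-per-million (TPM), a level corrected for transcript length, the highest member was Atp5b, the catalytic beta subunit of ATP synthase on chromosome 10 (128083273 to 128090391, plus strand; all positions are GRCm38). Atp5b averaged 1832 ± 699 TPM in mutant 5-FU and 3075 ± 93.1 TPM in WT 5-FU (SD, n = 3 each). It averaged 1239 ± 720 TPM in mutant PBS and 994 ± 482 TPM in WT PBS (SD, n = 5 each).

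Over all 16 libraries the highest level in each other complex was that of Cox4i1 (702 TPM), the common form of complex IV subunit 4, Ndufa4 (563 TPM), counted with complex I by its symbol although the protein is now assigned to complex IV, Uqcrb (431 TPM), which binds ubiquinone in complex III, Sdhb (242 TPM), the iron-sulfur subunit of complex II, and Ndufaf8 (71.5 TPM) among the assembly factors. The lowest levels among the 88 were those of Ndufa4l2 (0.496 TPM), Cox7a1 (1.37 TPM), the muscle form of subunit 7a, and Cox4i2 (3.12 TPM), the lung form of subunit 4.

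Summed over the 91 genes, mutant 5-FU libraries held 19102, 25081 and 35431 TPM and WT 5-FU libraries held 32221, 27624 and 33519 TPM. Mutant PBS libraries held 15457, 15730, 13679, 22700 and 28339 TPM and WT PBS libraries held 13075, 15310, 17459, 17606 and 24694 TPM. Every WT 5-FU sum was above every WT PBS sum, while mutant 5-FU and mutant PBS overlapped, as did the 2 genotypes. TPM is a share of all transcripts, immunoglobulin included. As a share of the counts of all genes other than immunoglobulin, members made up 1.98 to 2.15% in mutant 5-FU and 1.3 to 1.71% in WT 5-FU, against 1.56 to 2.71% in mutant PBS and 1.44 to 2.92% in WT PBS. On that scale mutant 5-FU lay above WT 5-FU in every library, and both overlapped the PBS ranges. The scales differ in length correction as well as in the denominator. As a share of all counts, immunoglobulin included, WT 5-FU (1.3 to 1.7%) also overlapped WT PBS (1.06 to 1.53%). The order of the groups thus depended on the scale. In bulk libraries, fewer cells of a type and less RNA per cell cannot be told apart.

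**Figure D1:**
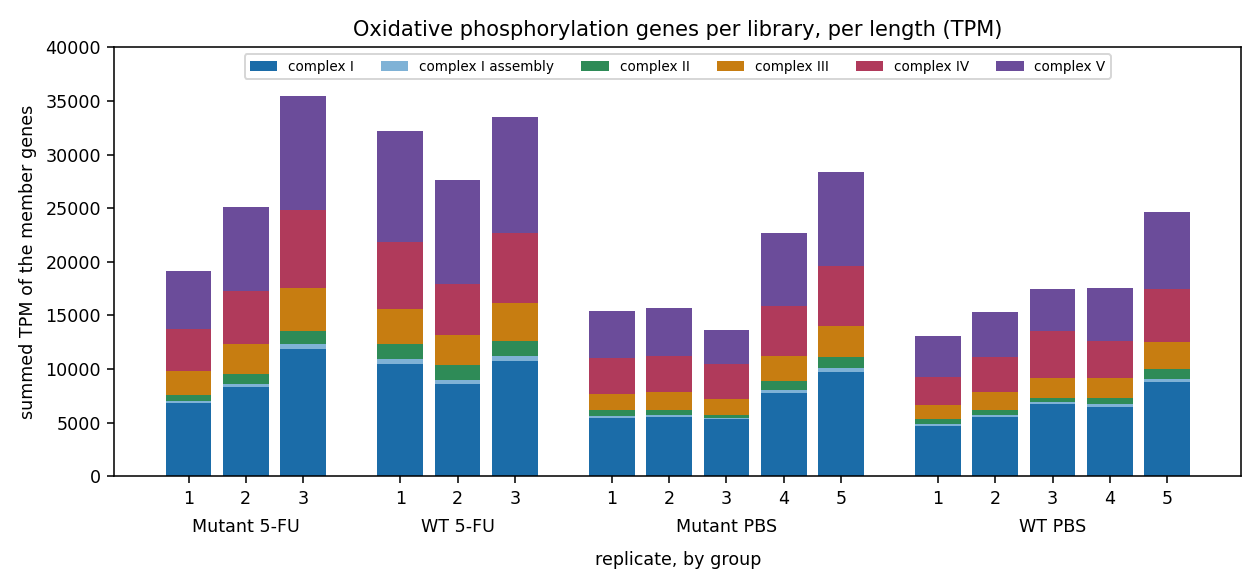
Summed transcripts-per-million (TPM) of the oxidative phosphorylation genes in each of the 16 libraries, stacked by complex. WT 5-FU bars reach 27624 to 33519 TPM and WT PBS bars 13075 to 24694 TPM, while mutant 5-FU bars spread from 19102 to 35431 TPM.

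Complex V and complex I made up most of each sum. Complex V summed to 5329 to 10563 TPM in mutant 5-FU and 9689 to 10809 TPM in WT 5-FU, against 3177 to 8716 TPM in mutant PBS and 3811 to 7257 TPM in WT PBS. Complex I summed to 6797 to 11836 TPM in mutant 5-FU and 8638 to 10790 TPM in WT 5-FU, against 5313 to 9699 TPM in mutant PBS and 4671 to 8750 TPM in WT PBS. Complex II, the smallest sum, lay at 587 to 1193 TPM in mutant 5-FU and 1385 to 1395 TPM in WT 5-FU, against 251 to 1033 TPM in mutant PBS and 327 to 923 TPM in WT PBS. WT 5-FU libraries stood above all other groups for complex II, whereas for complexes I and V they lay within the spread of mutant 5-FU or just past it.

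A feature that the members shared, and that their choice did not use, was short transcripts. The 88 tested members had a median effective length of 589 bases (246 to 2685), against 2075 bases over all 16482 tested genes. Their values therefore have to be read beside genes of like length, for which 3780 other genes with effective lengths from 347 to 1286 bases were used. That band is not an exact match, because more of its other genes are long. Among expressed other genes, 223 lay at 352.5 to 468.1 bases and 897 at 825.1 to 1095 bases. In the fold changes by length below, other genes under 500 bases, and those of the class up to 771 bases, reach shorter than any member. Those over 1000 bases reach longer. The libraries differed in the balance between long and short transcripts. Among members, the median deviation from the mean of all libraries for genes over 1000 bases minus that for genes under 500 bases was -0.11, 0.18 and 0.04 (log2) in mutant 5-FU and 0.56, 0.91 and 0.41 in WT 5-FU. The same difference was 0.11, -0.02, -1.33, 0.24 and 0.21 in mutant PBS and 0.19, -0.18, -1.51, 0.02 and 0.32 in WT PBS. WT 5-FU libraries were thus relatively low in short members, and replicate 3 of both PBS groups was high in them. Other genes moved with them: their long minus short difference was -0.13 to 0.21 in mutant 5-FU, 0.54 to 1.19 in WT 5-FU, -1.52 to 0.40 in mutant PBS and -1.84 to 0.36 in WT PBS.

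**Figure D2:**
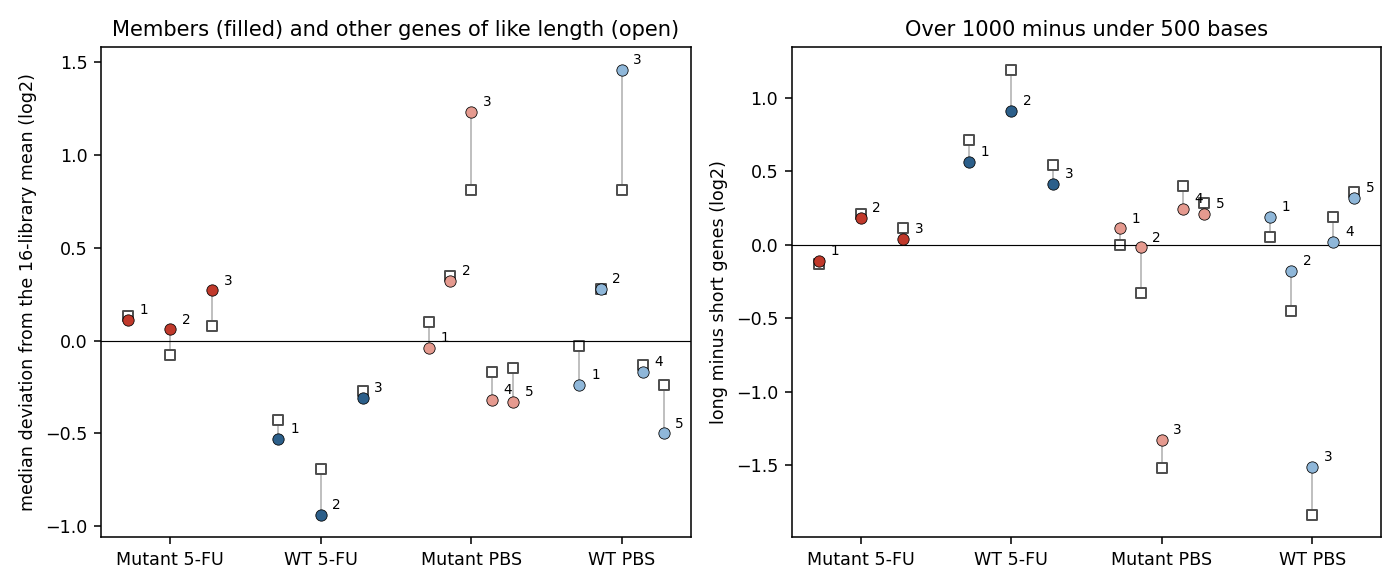
Left, median log2 deviation of the members (filled) and of other genes of like effective length (open) from the mean of all libraries, for each library. Right, the median for genes over 1000 bases minus that for genes under 500 bases, members and other genes. WT 5-FU members lie at -0.94 to -0.31 and like-length genes at -0.69 to -0.27, and replicate 3 of each PBS group stands apart on both sides.

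The members' median deviation in each library was 0.11, 0.06 and 0.27 (log2) in mutant 5-FU, where like-length genes lay at 0.13, -0.08 and 0.08. In WT 5-FU it was -0.53, -0.94 and -0.31, where like-length genes lay at -0.43, -0.69 and -0.27. In mutant PBS it was -0.04, 0.32, 1.23, -0.32 and -0.33, and in WT PBS -0.24, 0.28, 1.46, -0.17 and -0.50. Most of the spread between libraries was that of short genes in general. The part left after subtracting like-length genes was -0.02 to 0.19 in mutant 5-FU and -0.25 to -0.04 in WT 5-FU, against -0.18 to 0.42 in mutant PBS and -0.26 to 0.65 in WT PBS, and both 5-FU groups lay within the range of WT PBS.

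**Figure D3:**
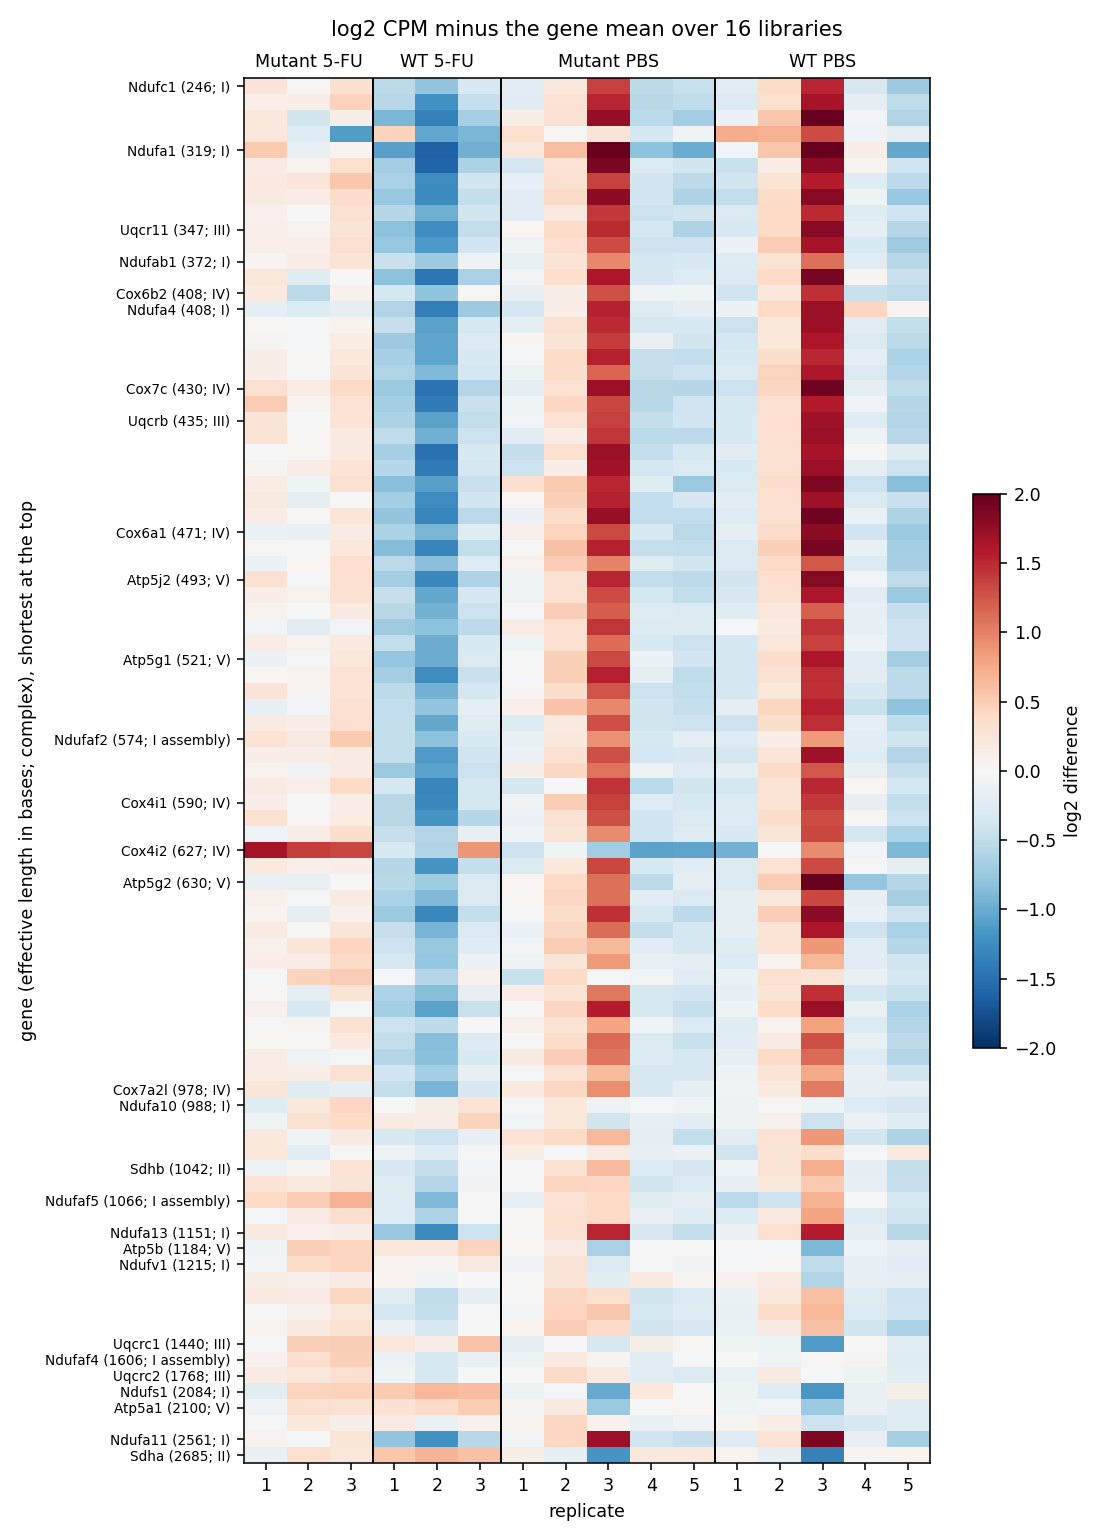
Log2 CPM of 87 members, each centred on its mean over the 16 libraries, with genes sorted by effective length and libraries by group (Ndufa4l2 is not drawn). Some of the members are labelled with their effective length in bases. Short genes are high in replicate 3 of both PBS groups and low in WT 5-FU libraries, while Sdha, Atp5a1, Ndufs1, Uqcrc1 and Atp5b, among the longest, show the opposite and Ndufa11 and Ndufa13 follow the short genes.

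The first comparison asked whether the enhancer mutation changed these genes without 5-FU. In mutant over WT libraries after PBS, 0 of 88 members rose and 0 fell (edgeR quasi-likelihood test, Benjamini-Hochberg adjusted p under 0.05), in a comparison where 0.0182% of all genes were called. At an unadjusted p under 0.05 there were also 0 members, where 3.28% of all genes passed. DESeq2 called 0 members, where it called 0.172% of all genes. The median log2 fold change of the members was -0.02, the same as over all genes, and 39 members lay above 0 and 49 below. In 0 members did the groups stand apart, where every mutant library was above every WT library for 0.322% of all genes and below for 0.291%. Complex medians ran from -0.09 for complex IV to 0.05 for complex II and for the assembly factors. The lowest differences were those of Cox4i2, at -0.62 ± 0.46, and Cox7a1, at -0.62 ± 0.59 (log2, SE; adjusted p = 1.0 each).

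The second comparison was 5-FU over PBS in WT mice. Here 1 member rose, Ndufs1, and 2 fell, Ndufa4 and Ndufa4l2, while 85 did not pass, where 14.9% of all genes were called, 5.55% higher and 9.31% lower. The members' median log2 fold change was -0.95, against -0.70 for like-length genes and -0.11 for all genes, with 11 members above 0 and 77 below. In separate length classes the order turned for the classes that hold most members. The 58 members of the class from 5 to 771 bases were at -1.06, against -1.19 for its other genes, and 41 of them lay above that value. That class takes in other genes shorter than any member, so it is not a closer match in length. Its other genes with at least 10 CPM were at -1.16, and 38 members lay above that. The 18 members of 771 to 1233 bases were at -0.38, against -0.52. The direction of the median of all members depended on the scale and the fit. On log2(TPM + 1) it was 0.74, where the median was 0.61 for like-length genes and 1.01 for all genes. It was 0.17 with the immunoglobulin share as a covariate and 0.07 within libraries of 1 shared code prefix, against -0.03 and -0.10 for like-length genes. The members' median was above that of like-length genes in these 3 settings, but not on other TPM scales. It was below on log2(TPM + 0.1), at 0.74 against 0.81. It was also below on TPM over genes other than immunoglobulin, a setting chosen after seeing the data, at -0.31 against -0.16. Without replicate 3 of both PBS groups, a choice made after seeing the data, 3 rose (Ndufs1, Sdha and Atp5a1) and 12 fell, where 21.8% of all genes were called, and the median was -0.42, against -0.44 for like-length genes.

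Ndufs1 encodes the largest subunit of complex I, in its NADH-oxidising arm (chromosome 1, 63143596 to 63176833, minus strand). It had 148, 162 and 157 CPM in WT 5-FU, against 96.0, 85.9, 45.6, 92.3 and 111 CPM in WT PBS. Every WT 5-FU library was above every WT PBS library, and Ndufs1 rose by 0.85 ± 0.28 (log2, SE; adjusted p = 0.0485). That call was lost without any 1 of WT PBS replicates 1 to 4 or of the WT 5-FU libraries (adjusted p = 0.0655 to 0.17). It was also lost with upper quartile scaling or with only the groups compared (adjusted p = 0.0514 in each), with no filter (0.0734), within 1 code prefix (0.189), and with the way the code is written (0.239) or the immunoglobulin share (0.797) as a covariate. On TPM over genes other than immunoglobulin, a setting chosen after seeing the data, the adjusted p was 0.07.

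Ndufa4 (chromosome 6, 11900292 to 11907497, minus strand) had 138, 80.7 and 126 CPM in WT 5-FU, against 192, 276, 694, 283 and 217 CPM in WT PBS. The groups did not overlap, and WT PBS replicate 3 was far above the others. Ndufa4 fell by 1.53 (log2; SE 0.48, adjusted p = 0.0443). Without replicate 2 or 3 of WT PBS, or any WT 5-FU library, the adjusted p was 0.0638 to 0.198, and with the trend of each library with length removed the difference was -0.36 (adjusted p = 0.162). The adjusted p was 0.131 within 1 code prefix, 0.214 with the way the code is written and 0.63 with the immunoglobulin share as a covariate. On log2(TPM + 1) the difference was 0.09, where the median of all genes was 1.01.

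Ndufa4l2 is a paralogue of Ndufa4 known to be induced by hypoxia through HIF1 (chromosome 10, 127514967 to 127517154, plus strand). It had 0 counts in all 3 WT 5-FU libraries, against 15, 8, 27, 7 and 3 counts in WT PBS, so it was at least 8.54-fold lower in WT 5-FU when set against a floor of 3 counts per library (adjusted p = 0.0171). Without WT PBS replicate 3, the highest at 2.45 CPM, the bound was 4.22-fold, and WT PBS replicate 5 was at the floor itself. Mutant libraries had 6, 5 and 2 counts after 5-FU and 11, 23, 28, 11 and 2 counts after PBS. All of these counts are low. The call was lost without WT 5-FU replicate 1 (adjusted p = 0.0658) or replicate 2 (adjusted p = 0.0796), with the share of immunoglobulin counts as a term of the fit (adjusted p = 0.0932), and on TPM over genes other than immunoglobulin (adjusted p = 0.0644). With Ndufa4l2 set at its bound the members' median was -0.94.

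**Figure D4:**
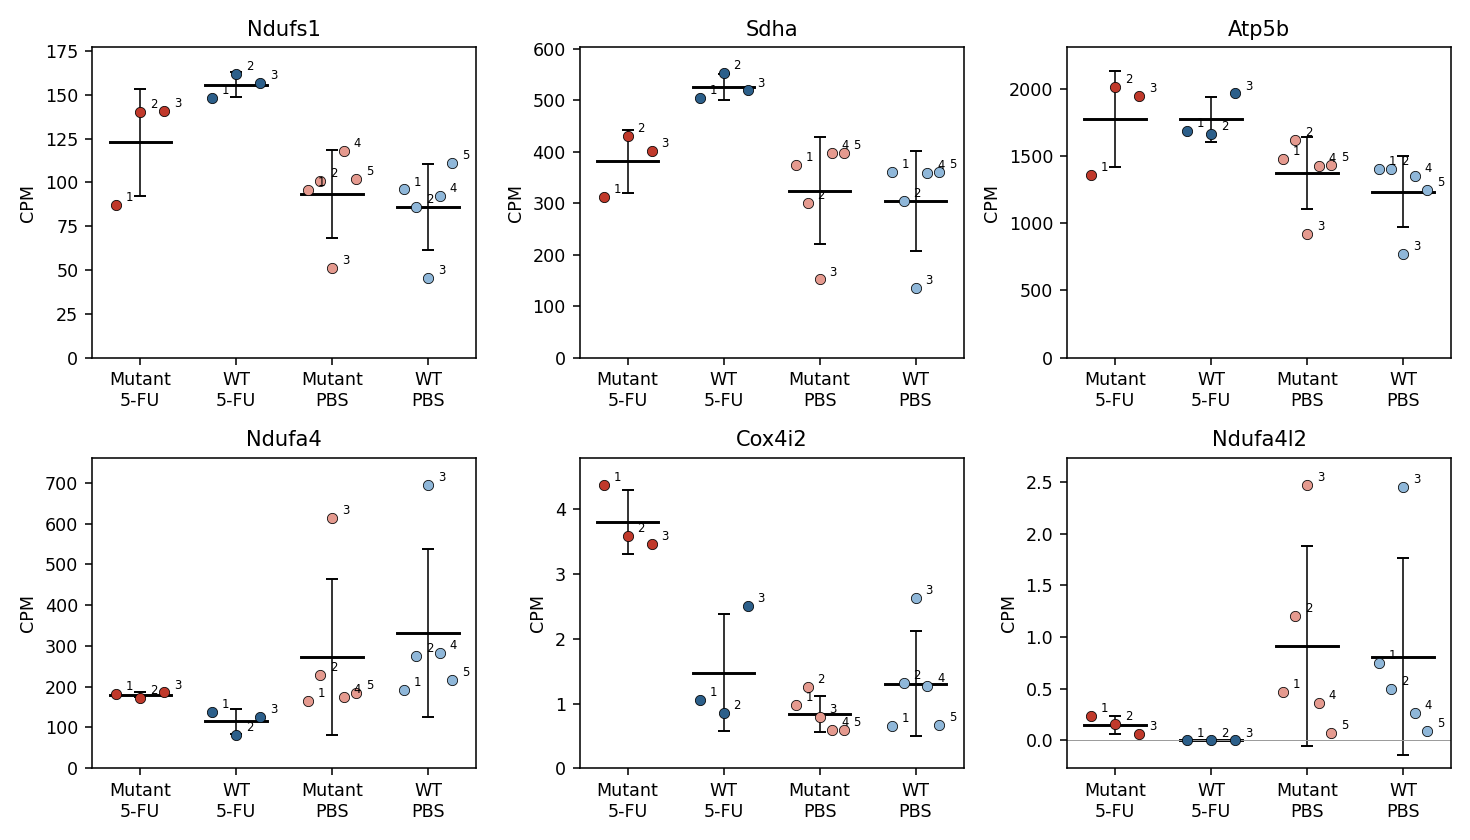
CPM of Ndufs1, Sdha, Atp5b, Ndufa4, Cox4i2 and Ndufa4l2 in each library, with the group mean (line) and SD (bar). Ndufs1 lies at 148 to 162 CPM in WT 5-FU and at 45.6 to 111 CPM in WT PBS, and Cox4i2 at 3.46 to 4.37 CPM in mutant 5-FU and at 0.589 to 1.25 CPM in mutant PBS.

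The change after 5-FU in WT followed transcript length. The 32 members under 500 bases had a median log2 fold change of -1.18, against -1.55 in other genes of that length, and 0 of them lay above 0. The -1.55 takes in the shortest genes, which were at a median of -9.43 from 200 to 265.5 bases. Expressed other genes of 352.5 to 468.1 bases were at -1.22, near the members' value. The 34 members of 500 to 1000 bases had a median of -0.89, against -0.82. The 22 members over 1000 bases had a median of -0.14, against 0.06, and 9 of them lay above 0. Across the 88 members Spearman's rho between fold change and effective length was 0.70, a description over genes that share the same libraries. It was 0.86 within complex V, 0.50 within complex I and 0.48 within complex IV. Ndufa11, a membrane arm subunit of complex I, stood off the trend: it had 47.3, 35.3 and 55.8 CPM in WT 5-FU, against 67.9, 99.5, 298, 72.5 and 51.5 CPM in WT PBS, a log2 difference of -1.35 ± 0.57 (SE; adjusted p = 0.104). Its deposited effective length of 2561 bases is longer than all 4 of its transcripts in GENCODE M21 (376 to 918 bases), so it is counted among the long members with a length that the annotation does not bear out. It was named after its values were seen.

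**Figure D5:**
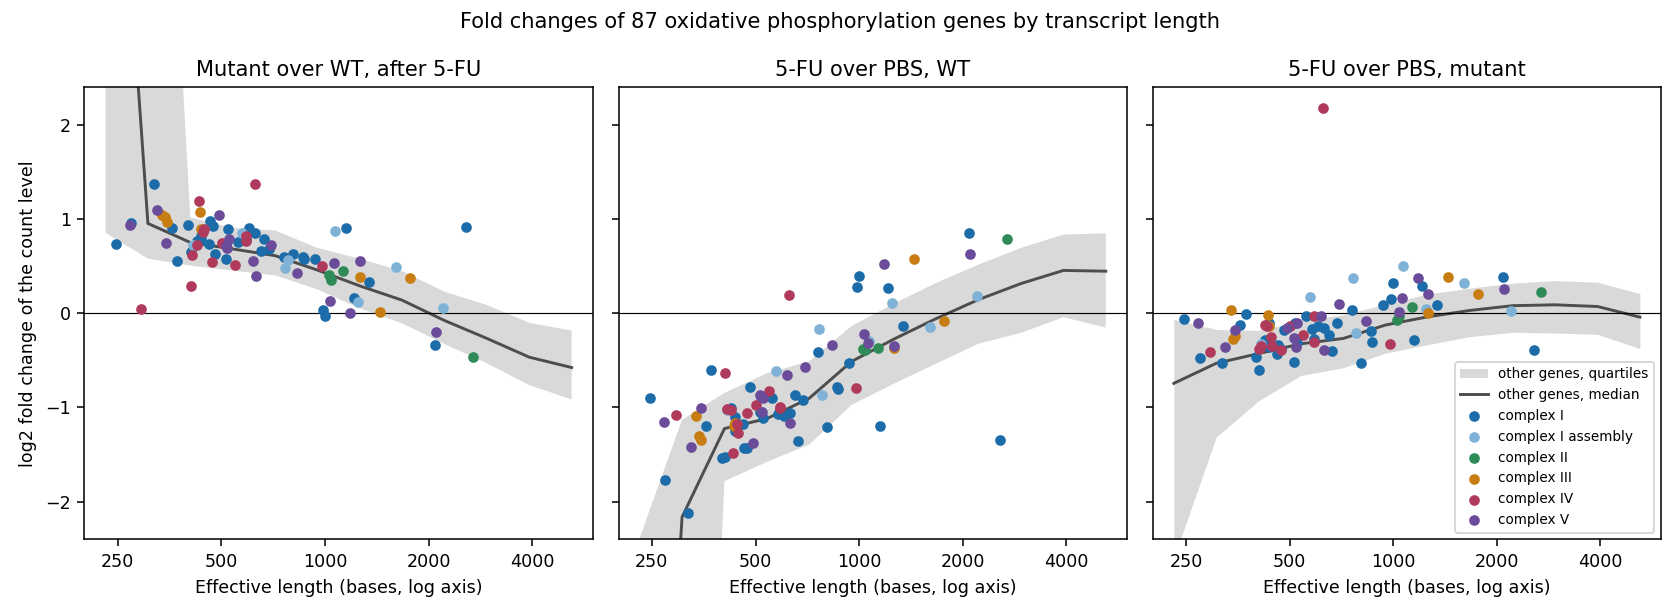
Log2 fold change of 87 members against effective length (log axis), coloured by complex, for mutant over WT after 5-FU, 5-FU over PBS in WT and 5-FU over PBS in mutant. The grey line and band are the median and quartiles of other genes, Ndufa4l2 is outside the axis and not drawn. Members follow the grey line, with rho of -0.61, 0.70 and 0.54.

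By complex, the median log2 fold change in WT after 5-FU was -1.06 for complex I, -0.23 for its assembly factors, -0.38 for complex II, -1.12 for complex III, -1.01 for complex IV and -0.76 for complex V. At an unadjusted p under 0.05 there were 47 members, or 25, 1, 1, 6, 6 and 8 in the same order, where 36.9% of all genes passed. In 7 members every WT 5-FU library was above every WT PBS library and in 13 every one was below, where these made up 16.0% and 15.9% of all genes. Those above included Ndufs1, Ndufv1, Sdha, Uqcrc1, Atp5b and Atp5a1, which encode core subunits of complexes I, II, III and V. Other electron-transferring subunits of complex I lay below 0: Ndufs7 was at -0.87, Ndufs3 at -0.80, Ndufs8 at -0.78 and Ndufv2 at -0.53 (log2), all overlapping between groups.

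Sdha, the flavoprotein that oxidises succinate, had 504, 553 and 519 CPM in WT 5-FU, against 360, 304, 135, 358 and 361 CPM in WT PBS, a log2 difference of 0.79 ± 0.32 (SE; adjusted p = 0.0888). Sdhb, its iron-sulfur partner, had 178, 159 and 212 CPM in WT 5-FU, against 211, 267, 367, 195 and 158 CPM in WT PBS, a log2 difference of -0.39 ± 0.28 (SE; adjusted p = 0.308). Sdha had the longest transcript of all members and was separated, while Sdhb overlapped. Sdhc and Sdhd, the membrane anchors, were at -0.38 and -0.37.

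In complex III, Uqcrc1 had 426, 400 and 542 CPM in WT 5-FU, against 344, 340, 167, 366 and 312 CPM in WT PBS, a log2 difference of 0.58 ± 0.24 (SE; adjusted p = 0.0945). Uqcr11, a small subunit, had 67.8, 50.8 and 85.0 CPM in WT 5-FU, against 96.8, 158, 426, 106 and 80.6 CPM in WT PBS, a log2 difference of -1.35 ± 0.54 (SE; adjusted p = 0.0903). Of this pair the long core gene was high and the short one low, and neither passed. Uqcrh, Uqcrb and Uqcr10, also small subunits, were at -1.20, -1.16 and -1.09, and Uqcrc2, the other core protein, was at -0.08.

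In complex IV, Cox4i1 had 258, 156 and 298 CPM in WT 5-FU, against 313, 460, 1013, 339 and 270 CPM in WT PBS, a log2 difference of -1.01 ± 0.46 (SE; adjusted p = 0.122). Cox6a1, the common form of subunit 6a, had 153, 126 and 201 CPM in WT 5-FU, against 206, 306, 828, 183 and 142 CPM in WT PBS. Both overlapped between groups, with WT PBS replicate 3 highest. Cox7c, a small subunit, was at -1.48 ± 0.61 (adjusted p = 0.0967) and Cox7a2l, which takes part in joining complexes III and IV into supercomplexes, at -0.79 ± 0.32 (adjusted p = 0.0947).

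In complex V, Atp5a1, the alpha subunit, had 1108, 1187 and 1293 CPM in WT 5-FU, against 857, 879, 548, 816 and 772 CPM in WT PBS, a log2 difference of 0.63 ± 0.22 (SE; adjusted p = 0.0615). Atp5b had 1683, 1666 and 1965 CPM in WT 5-FU, against 1402, 1401, 772, 1354 and 1250 CPM in WT PBS, a log2 difference of 0.52 ± 0.23 (SE; adjusted p = 0.119). Both were higher in every WT 5-FU library without passing the test. Atp5j2, a small membrane subunit, was at -1.38 ± 0.55 (SE; adjusted p = 0.0884). Ndufa1, a small complex I subunit, was at -2.12 ± 0.80 (SE; adjusted p = 0.0784), with 44.2, 30.8 and 48.5 CPM in WT 5-FU, against 91.1, 139, 519, 102 and 46.6 CPM in WT PBS.

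With the trend of each library with effective length removed, 11 members rose and 1, Ndufa4l2, fell in WT after 5-FU, where 17.5% of all genes were called, 7.66% higher and 9.86% lower, and the members' median was 0.10, against -0.03 for like-length genes. Those that rose included Ndufc1, a small membrane subunit of complex I (0.67, adjusted p = 0.00163), Ndufab1, the mitochondrial acyl carrier protein (0.61, adjusted p = 0.013), Ndufs1 (0.80, adjusted p = 0.015), Atp5a1 (0.56, adjusted p = 0.015), Ndufa10 (0.76, adjusted p = 0.0182), Cox6b2 (0.61, adjusted p = 0.0199), Uqcrc1 (0.76, adjusted p = 0.0282), Atp5b (0.83, adjusted p = 0.0382), Ndufv1 (0.58, adjusted p = 0.0406) and Atp5d, the delta subunit of ATP synthase (0.35, adjusted p = 0.0462). Sdha was at 0.60 (adjusted p = 0.0537). In the main fit Ndufc1 (-0.90), Ndufab1 (-0.60), Cox6b2 (-0.63) and Atp5d (-0.34) lay below 0 and overlapped between groups. Their direction thus turned with the length fit, while the other members that rose lay above 0 in both fits.

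The third comparison was 5-FU over PBS in mutant mice. Cox4i2 rose, 0 members fell and 87 did not pass, where 2.2% of all genes were called, 0.837% higher and 1.36% lower. It was also the only member whose 5-FU libraries all lay above the PBS libraries, and 0 members lay below, where these made up 5.04% and 4.92% of all genes. The median of the members was -0.13, against -0.20 for like-length genes and -0.03 for all genes, with 25 members above 0 and 63 below; on log2(TPM + 1) it was 0.51, where that of all genes was 0.33, and without replicate 3 of both PBS groups it was 0.21. The complex medians were -0.21 for complex I, 0.11 for its assembly factors, 0.02 for complex II, -0.01 for complex III, -0.28 for complex IV and -0.09 for complex V. Members under 500 bases had a median of -0.28 and those over 1000 bases 0.18, against -0.51 and 0.02 in other genes, and Spearman's rho with length was 0.54.

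Cox4i2 replaces Cox4i1 in some complex IV and is known for its expression in lung and its response to low oxygen (chromosome 2, 152754173 to 152765037, plus strand). It had 4.37, 3.58 and 3.46 CPM in mutant 5-FU, against 0.974, 1.25, 0.793, 0.589 and 0.597 CPM in mutant PBS. All mutant 5-FU libraries were above all mutant PBS libraries, and Cox4i2 rose by 2.18 ± 0.50 (log2, SE; adjusted p = 0.0313). The values rest on 111, 113 and 114 counts in mutant 5-FU and on 23, 24, 9, 18 and 16 counts in mutant PBS. Without replicate 1, 4 or 5 of mutant PBS, or any mutant 5-FU library, the adjusted p was 0.0625 to 0.0921, and it was 0.121 within codes written with a leading zero and 0.126 within 1 code prefix.

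In WT, Cox4i2 had 1.06, 0.851 and 2.51 CPM after 5-FU, against 0.650, 1.32, 2.63, 1.27 and 0.674 CPM after PBS, and these overlapped (log2 0.19 ± 0.51, SE; adjusted p = 0.804). With the length trend removed the WT difference was 1.04 (adjusted p = 0.0798), and on log2(TPM + 1) Cox4i2 rose in WT by 1.22 (limma, adjusted p = 0.0257), where the median of all genes was 1.01. The difference between the genotypes' responses was 1.99 ± 0.73 (SE; adjusted p = 0.29), so a difference in response was not shown. Cox4i1 had 420, 383 and 412 CPM in mutant 5-FU, against 361, 536, 979, 317 and 306 CPM in mutant PBS, and these overlapped (log2 -0.30 ± 0.44, SE; adjusted p = 0.851). Per length, Cox4i2 made up 0.868 ± 0.103% of the sum of both forms in mutant 5-FU and 0.563 ± 0.196% in WT 5-FU (SD, n = 3 each), against 0.18 ± 0.0679% in mutant PBS and 0.26 ± 0.0598% in WT PBS (SD, n = 5 each). The share lay at 0.394 to 0.778% in WT 5-FU, against 0.193 to 0.354% in WT PBS, and at 0.778 to 0.981% in mutant 5-FU, against 0.0733 to 0.257% in mutant PBS, so that it was higher after 5-FU in every library of both genotypes. Cox4i1 was nearly all of subunit 4 in every group.

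With the length trend removed, 3 members rose and 0 fell in mutant mice, where 3.87% of all genes were called, 1.65% higher and 2.22% lower: Cox4i2 by 2.34 ± 0.40 (adjusted p = 0.00312), Uqcr10 by 0.50 ± 0.13 (adjusted p = 0.0367) and Ndufc1 by 0.43 ± 0.11 (log2, SE; adjusted p = 0.0439). Ndufc1 also rose in WT in that fit, but in the main fit it was at -0.06 in mutant and -0.90 in WT mice. It had 70.7, 60.6 and 72.6 CPM in mutant 5-FU and 40.4, 34.2 and 47.6 CPM in WT 5-FU. It had 51.1, 68.7, 152, 40.9 and 43.2 CPM in mutant PBS and 50.9, 75.8, 170, 47.2 and 35.7 CPM in WT PBS. The CPM of Ndufc1 overlapped between 5-FU and PBS in mutant libraries, and in both PBS groups replicate 3 was highest.

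The fourth comparison was mutant over WT 10 days after 5-FU. Here 0 of 88 members rose and 0 fell (edgeR quasi-likelihood test), where 1.95% of all genes were called, 1.49% higher and 0.461% lower, and DESeq2 called 1, Ndufaf4, where it called 8.12% of all genes. With voom sample weights 64 members rose, where 30.8% of all genes were called, and with only the groups compared 39 of 86 rose, where 14.1% were called. At an unadjusted p under 0.05 there were 5 members, where 18.4% of all genes passed. The members' median log2 fold change was 0.71, against 0.51 for like-length genes and 0.07 for all genes, and 84 members lay above 0. In separate length classes, the 58 members up to 771 bases were at 0.78, against 0.71 for other genes. The 18 members of 771 to 1233 bases were at 0.47, against 0.45. On log2(TPM + 1) the median of all members was -0.17, where that of all genes was -0.59. With the way the code is written as a covariate it was -0.24, where that of all genes was 0.05. Within 5-FU that covariate equals genotype, so its term comes from the PBS libraries alone. In 73 members every mutant library was above every WT library and in 2, Sdha and Ndufs1, every one was below, where these made up 21.4% and 17.9% of all genes. These shares are over genes of all lengths and were not taken for like-length genes. Short genes in general were shifted up here: other genes of 468.1 to 621.4 bases had quartiles of 0.453 and 0.907.

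The genotype difference followed length in the reverse sense of the WT response, and both use the same WT 5-FU libraries. The median was 0.88 for members under 500 bases, against 0.86 in other genes, 0.70 for those of 500 to 1000 bases, against 0.56, and 0.34 for those over 1000 bases, against -0.05. By complex the median was 0.75 for complex I, 0.53 for its assembly factors, 0.38 for complex II, 0.93 for complex III, 0.73 for complex IV and 0.62 for complex V. With the length trend removed the median of all members was 0.10, against 0.03 for like-length genes, and 0 rose and 0 fell, where 1.87% of all genes were called.

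The 5 members with an unadjusted p under 0.05 were 3 assembly factors of complex I and the isoforms Cox4i2 and Ndufa4l2. Ndufaf4 (chromosome 4, 24898083 to 24905001, plus strand) had 41.9, 49.2 and 54.9 CPM in mutant 5-FU, against 36.4, 31.7 and 35.6 CPM in WT 5-FU, a log2 difference of 0.49 ± 0.17 (SE; adjusted p = 0.15). Ndufaf5 had 15.3, 16.6 and 18.7 CPM in mutant 5-FU, against 9.66, 6.25 and 11.7 CPM in WT 5-FU, a log2 difference of 0.87 ± 0.33 (SE; adjusted p = 0.176). Ndufaf2 had 30.6, 28.5 and 36.1 CPM in mutant 5-FU, against 18.0, 14.3 and 20.4 CPM in WT 5-FU, a log2 difference of 0.85 ± 0.35 (SE; adjusted p = 0.209). All 3 assembly factors were higher in every mutant library and none passed after adjustment.

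Sdha had 312, 430 and 402 CPM in mutant 5-FU, against 504, 553 and 519 CPM in WT 5-FU, a log2 difference of -0.46 ± 0.36 (SE; adjusted p = 0.486). Ndufs1 had 87.4, 140 and 141 CPM in mutant 5-FU, against 148, 162 and 157 CPM in WT 5-FU, a log2 difference of -0.34 ± 0.32 (SE; adjusted p = 0.552). These were the only members whose mutant libraries all lay below WT, and in both mutant replicate 1 was lowest. Cox4i2 was at 1.37 ± 0.57 (SE; adjusted p = 0.221). Ndufa4l2 had 6, 5 and 2 counts in mutant 5-FU and 0 in each WT 5-FU library, which is too few for a fold.

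The test of the difference between the genotypes' responses to 5-FU called 0 of 88 members, where 0.589% of all genes were called, 0.558% higher and 0.0303% lower. DESeq2 also called 0 members, where it called 3.61% of all genes. At an unadjusted p under 0.05 there were 3 members, Cox4i2, Ndufaf4 and Ndufa4l2, where 10.8% of all genes passed. The median of the interaction was 0.72, against 0.49 for like-length genes, and with the length trend removed 0.09, against 0.02, where 0 members and 0.558% of all genes were called, 0.516% higher and 0.0425% lower. In separate length classes members were at 0.85, against 0.8, up to 771 bases and at 0.45, against 0.39, from 771 to 1233 bases. Without replicate 3 of both PBS groups the median of all members was 0.57. On log2(TPM + 1) it was -0.27, where that of all genes was -0.68.

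Other tissue isoforms were measured per length as shares of their subunit. Cox6b2, known from testis, made up 7.07 ± 1.59% of the sum with Cox6b1 in mutant 5-FU and 9.28 ± 0.574% in WT 5-FU (SD, n = 3 each), against 8.74 ± 1.04% in mutant PBS and 8.06 ± 0.75% in WT PBS (SD, n = 5 each). Among the 3 genes for the c subunit, which forms the rotor ring of ATP synthase, Atp5g3 held 52.8, 55.1, 48.0 and 49.0% on average in mutant 5-FU, WT 5-FU, mutant PBS and WT PBS. Atp5g1 held 41.2, 38.1, 45.3 and 43.6% and Atp5g2 held 5.93, 6.79, 6.72 and 7.39% in the same groups. The order Atp5g3, Atp5g1, Atp5g2 was the same in all 4 groups. Their mature proteins are known to be identical, so the 3 genes differ in regulation and in the import sequence.

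The promoters of these genes are known targets of NRF1 and of the Ets factor GABP, which coordinate nuclear genes for the respiratory chain. For 74 of the 91 members the RefSeq table (GRCm38.p6) gave the 300 bases from 250 before to 50 after the start. An NRF1 motif (GCGCA, any base, then GCGC, both strands) was found in 19 members (25.7%), against 5.19% of 27025 genes in the table, and an Ets motif (CCGGAAG, both strands) in 18 (24.3%), against 9.93%. Either motif was in 33 members (44.6%), against 14.0%: 11 of 33 in complex I, 4 of 7 among assembly factors, 3 of 3 in complex II, 3 of 5 in complex III, 3 of 13 in complex IV and 9 of 13 in complex V. A match is a description of letters, not of a bound site. The comparison is with all genes of the table, expressed here or not, and was not made with expressed genes alone. Of these promoters 4 are printed 5′ to 3′ on the gene's strand, each as the longest part before the start that no annotated exon covers, with motif letters in capitals. They were chosen to show 1 NRF1 motif (Ndufaf4, plus strand, chr4:24897833-24898082), 1 Ets motif (Uqcr11, minus strand, chr10:80406831-80407071), 2 NRF1 motifs (Cox6a1, minus strand, chr5:115348982-115349129) and neither (Ndufa4, which fell in WT after 5-FU, minus strand, chr6:11907498-11907700). The searched window of Cox6a1 also held 1 Ets motif, outside the printed part.
Ndufaf4: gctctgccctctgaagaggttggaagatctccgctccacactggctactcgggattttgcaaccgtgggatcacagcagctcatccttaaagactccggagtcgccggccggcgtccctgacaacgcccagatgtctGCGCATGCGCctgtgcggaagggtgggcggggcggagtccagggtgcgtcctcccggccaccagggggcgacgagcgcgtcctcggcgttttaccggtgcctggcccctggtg
Uqcr11: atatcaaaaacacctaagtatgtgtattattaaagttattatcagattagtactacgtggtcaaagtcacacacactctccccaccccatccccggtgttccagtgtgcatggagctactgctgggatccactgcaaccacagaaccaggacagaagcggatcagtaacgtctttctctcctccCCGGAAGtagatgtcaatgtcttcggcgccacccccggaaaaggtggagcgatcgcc
Cox6a1: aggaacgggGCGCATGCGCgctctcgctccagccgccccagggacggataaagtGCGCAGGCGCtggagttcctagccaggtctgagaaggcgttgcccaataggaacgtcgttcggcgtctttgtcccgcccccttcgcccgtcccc
Ndufa4: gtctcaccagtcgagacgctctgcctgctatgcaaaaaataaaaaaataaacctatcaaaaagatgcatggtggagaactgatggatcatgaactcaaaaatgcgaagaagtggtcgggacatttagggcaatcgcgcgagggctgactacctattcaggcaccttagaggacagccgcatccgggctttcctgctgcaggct

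Genes of the wider pathway were counted for comparison, first in 5-FU over PBS in WT, where 5.55% of all genes rose and 9.31% fell. Of 14 TCA cycle genes, 1 rose and 0 fell, with a median of 0.37. The gene that rose was Cs, citrate synthase, at 231 ± 17.7 CPM in WT 5-FU (SD, n = 3), against 149 ± 16.0 CPM in WT PBS (SD, n = 5), a log2 change of 0.63 ± 0.19 (SE; adjusted p = 0.0371). Of 15 regulators 1 rose and 0 fell, with a median of 0.27. That gene was Polrmt, the mitochondrial RNA polymerase, at 55.6 ± 4.8 CPM in WT 5-FU (SD, n = 3), against 26.2 ± 10.1 CPM in WT PBS (SD, n = 5), a log2 change of 1.08 ± 0.35 (SE; adjusted p = 0.0481).

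Of 14 genes for electron carriers and ubiquinone synthesis 0 rose and 0 fell in WT, with a median of 0.09, and of 31 other assembly factors 0 rose and 0 fell, with a median of -0.31. Of 78 genes of the mitochondrial ribosome 0 rose and 0 fell, with a median of -0.43. Of 87 tested genes of the cytosolic ribosome, which also have short transcripts, 0 rose and 3 fell, Rps27, Rpl22l1 and Rps27rt, with a median of -1.13. Rps27rt is a near copy of Rps27, and reads may be split between them. In mutant mice after 5-FU 1 gene of these 6 lists was called, where 2.2% of all genes were. Coq3, a methyltransferase of ubiquinone synthesis, rose by 1.22 ± 0.28 (log2, SE; adjusted p = 0.0289), with 31.1 ± 6.31 CPM in mutant 5-FU (SD, n = 3), against 13.4 ± 3.61 CPM in mutant PBS (SD, n = 5). In the genotype comparisons and the interaction 0 genes of these lists were called. Of all genes, 0.0182% were called between genotypes after PBS, 1.95% after 5-FU and 0.589% in the interaction.

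With the length trend removed, more of these genes rose in WT after 5-FU, in a fit where 7.66% of all genes rose: 6 of 14 TCA cycle genes (Ogdh, Idh3a, Dlst, Idh3g and Mdh2 among them), 4 of 14 carrier genes (Etfa and Etfb, which pass electrons from fatty acid oxidation, and Coq6 and Coq7), 2 of 31 assembly factors (Ecsit and Atpaf1), 12 of 78 genes of the mitochondrial ribosome and 1 of 87 of the cytosolic ribosome. Cs was then at 0.36 (adjusted p = 0.0678), while Polrmt rose by 1.21 (adjusted p = 0.0312).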

How the data were processed

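Expected counts, TPM and effective lengths per gene, made with RSEM 1.3.1, were deposited by the authors for each of 16 libraries, on mm10/GRCm38, and FastQC 0.11.2 was used, per the submitters' processing notes; the aligner is not given in the sources used here. RNA was extracted with the RNeasy Micro kit and libraries made with NuGEN Ovation Ultralow, per the labels' protocols. After rounding the expected counts, genes were kept by filterByExpr (minimum count 10), scaled by TMM (0.508 to 1.37) and fitted with edgeR 4.0.16 (R 4.3.3), robust quasi-likelihood, with 1 mean per group over all 16 libraries. P-values were adjusted by Benjamini-Hochberg over 16482 genes, and CPM use TMM-scaled totals. Each SE was taken as the size of the log2 fold change over the root of its F statistic. The length fit removed each library's lowess trend (span 0.3) with log10 effective length through the offset. Scripts were tested on simulated data. Alternatives used DESeq2 1.42.0, limma 3.58.1 (voom with quality weights, and log2(TPM + 1 or 0.1)), other scalings, covariates, subsets and left-out libraries.

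Members named by rule were the highest by TPM in each complex, the 2 smallest p in each complex and comparison, called members and tissue isoforms. Ndufaf2 and the separated members were named after their values were seen. Other members outside that rule, such as Ndufa1, Cox6a1, Ndufs3, Ndufs7, Ndufs8, Ndufv2, Ndufc1, Ndufab1 and Atp5d, are also named above. The members, lists and tests were chosen with earlier results of these data known. No 2 libraries were duplicates (largest correlation 0.983). Same-numbered PBS libraries deviated together (r = 0.165 to 0.569), though mutant PBS replicate 4 was nearest to WT PBS replicate 5. The main fit used no block for the number. A replicate block changed no member call in mutant over WT after PBS. It did change the calls in other comparisons. With it 5 members rose and 69 fell in WT after 5-FU, where 44.4% of all genes were called. Between genotypes after 5-FU 10 rose, where 9.25% were called. The deposited effective length of Ndufa11 (2561) is above all of its GENCODE M21 transcripts, which was so for 1 of 91 members. Some genes of these lists are counted but not reported here by name.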

Additional observations from a re-analysis of the deposited data

Results flagged for a closer look

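In the groups of 5 libraries, a library was marked where its gap to the next, divided by the range of the group, was above 0.71. Chance marks about 1 in 20 groups if the groups are independent. Those read here are the same PBS libraries over members that vary together, so the number marked cannot be set against that rate. Of 94 groups tested 31 were marked, at 21 of 37 named members, and 30 of the 31 marks were at replicate 3 of a PBS group, the libraries with the largest immunoglobulin share (53.65% in mutant PBS and 47.55% in WT PBS). The part of that share in these values was not tested.

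Mutant PBS replicate 3 was highest for Atp5j2 (289 CPM), Cox6b2 (39.5 CPM), Cox7c (428 CPM), Ndufa4 (613 CPM), Ndufaf8 (70.4 CPM), Ndufb9 (386 CPM), Uqcr10 (248 CPM) and Uqcrb (445 CPM), and lowest for Atp5b (918 CPM). The 1 mark elsewhere was mutant PBS replicate 2, highest for Ndufa10 (151 CPM).

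WT PBS replicate 3 was highest for the c-subunit genes Atp5g1 (671 CPM), Atp5g2 (185 CPM) and Atp5g3 (781 CPM), and for Atp5j2 (361 CPM), Cox4i1 (1013 CPM), Cox6b2 (45.4 CPM), Cox7a2l (262 CPM), Cox7c (506 CPM), Ndufa4 (694 CPM), Ndufa4l2 (2.45 CPM), Ndufaf3 (77.4 CPM), Ndufaf8 (81.9 CPM), Uqcr10 (286 CPM), Uqcr11 (426 CPM), Uqcrb (560 CPM) and Uqcrh (345 CPM). It was lowest for the long genes Atp5b (772 CPM), Sdha (135 CPM) and Uqcrc1 (167 CPM). The members' long minus short difference was lowest at the same number in both groups, -1.33 in mutant PBS and -1.51 in WT PBS (log2).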

How the results depend on the processing

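In WT after 5-FU, 3 of 88 members (14.9% of all genes) were called and their median was -0.95. The number called was 20 with DESeq2 (27.9% of all genes), 32 with voom weights (42.4%, median -0.38), 34 on log2(TPM + 1) (45.6%) and 26 on log2(TPM + 0.1) (34.8%; median 0.74 on both, all genes 1.01 and 1.3), 12 with the length trend removed (17.5%, median 0.10), 1 with code writing as covariate (6.14%, median -0.22), 0 with immunoglobulin share (4.2%, median 0.17), 0 within 1 code prefix (1.18%, median 0.07), 1 with only the groups compared (15.1%), 74 with the replicate block, which shares only a number here (44.4%), and 23 with the block and the length trend removed (35.8%, median 0.05). The median was -0.21 within codes written without a leading zero. Added after seeing the data, TPM over genes other than immunoglobulin called 1 (8.36%, median -0.31), and leaving out replicate 3 of both PBS groups called 15 (21.8%, median -0.42).

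In mutant mice, with 1 called (2.2% of all genes) and a median of -0.13, the number was 3 with the length trend removed (3.87%), 5 with the block and the length trend removed (7.06%), and 0 within codes with a leading zero (1.19%) or 1 prefix (1.88%). The median was 0.51 on log2(TPM + 1) and 0.52 on log2(TPM + 0.1), 0.30 with immunoglobulin share, 0.17 with voom weights and with the length trend removed, and -0.50 with code writing as covariate and within codes with a leading zero. Between genotypes after 5-FU, with 0 called (1.95%) and a median of 0.71, the number was 1 with DESeq2 (8.12%), 64 with voom weights (30.8%), 39 of 86 with only the groups compared (14.1%) and 10 with the replicate block (9.25%). The median was -0.17 on both TPM scales, 0.10 with the length trend removed, with or without the block, -0.24 with code writing and 0.20 with immunoglobulin share. Within 5-FU code writing equals genotype, so its term, here and in the interaction, comes from the PBS libraries alone. For the interaction, with 0 called (0.589%) and a median of 0.72, voom weights called 1, Cox4i2 (4.47%), and the median was -0.27 on both TPM scales, 0.09 with the length trend removed, 0.08 with the block as well, -0.23 with code writing and 0.13 with immunoglobulin share.

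Leaving out 1 library at a time, the number called was 0 to 8 in WT after 5-FU, where 3.06 to 19.8% of all genes were called, 0 to 1 in mutant (0.913 to 2.47%) and 0 in the other comparisons. The medians were -1.12 to -0.42 in WT, -0.28 to 0.21 in mutant, 0.53 to 0.85 between genotypes after 5-FU, -0.36 to 0.40 after PBS and 0.28 to 1.04 for the interaction. The 8 were without WT PBS replicate 5, which gave the 19.8%, and the median of -0.42 was without WT PBS replicate 3.

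The next counts cover only the 37 members named by rule, each in the comparisons in which it was named. Among these, a direction that passed the test or came to pass was turned in WT after 5-FU on log2(TPM + 1) for Ndufa4 (0.09), Sdhb (1.16), Atp5g3 (1.03) and Cox6b2 (1.02), on log2(TPM + 0.1) for Ndufa4 (0.09), Sdhb (1.16) and Atp5g3 (1.04), and for Cox6b2 with the length trend removed (0.61) and with the block as well (0.70). Other members also turned, such as Ndufc1, Ndufab1 and Atp5d with the length trend removed. Of 2946 values over 112 pairs of a named member and a comparison, 2821 kept their side of the threshold, 80 came to pass in the same direction, 36 no longer passed and 9 reversed, and 374 had another sign, these 9 included. Causes beyond what a setting itself changes were not tested. Genes with few counts, Ndufa4l2 and Cox7a1 above all, are limited by depth.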
